A study of Mus musculus with 4 samples.

Results

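The stratified and stress keratins described here were 10 keratin genes of the embryonic and newborn mouse mammary gland. The type II genes were Krt1, Krt4, Krt5, Krt6a and Krt77, and the type I genes Krt10, Krt14, Krt15, Krt16 and Krt17. The 10 genes were chosen by name, with earlier results of these data known. They are 10 of the 53 keratin genes, and of the 30406 genes in all, that were listed for every library. Their transcripts were counted in single cells at embryonic days E13.5, E14.5 and E15.5 and at birth (P0). In outline, Krt5, Krt14 and Krt15 were well above the background of mesenchymal cells in both epithelial classes of all 3 embryonic stages. Krt5 and Krt15 were nearly gone from Krt8/Krt18-high cells at P0, while Krt14 and Krt17 were not. The suprabasal keratins Krt1, Krt10 and Krt77 were carried by a small set of E15.5 epithelial cells low in Krt8 and Krt18. Krt6a and Krt16 were high in other epithelial cells of E15.5 and in Krt8/Krt18-high cells of P0. In Krt8/Krt18-high cells Krt16 was already within 2-fold of its P0 level at E15.5.

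Keratins are the intermediate filament proteins of epithelial cells, and a filament is built only from pairs of a type I and a type II protein. Krt5 and Krt14 are the pair of the basal, proliferating layer of stratified epithelia such as epidermis and of the basal (myoepithelial) layer of the mammary gland, and Krt15 is a further type I keratin of basal keratinocytes. Krt1 and Krt10 are the pair that replaces them when epidermal cells leave the basal layer, and Krt77 is a type II keratin of suprabasal epidermis. Krt6a, Krt16 and Krt17 are called stress keratins because wounded or stressed epidermis makes them, and they also belong to hair follicles, ducts and the periderm, the flat outer sheet of the embryonic skin. Krt4 is a keratin of internal stratified epithelia and of periderm. Krt7, Krt8, Krt18 and Krt19, which are no members of the set, are the keratins of simple epithelia and of the luminal mammary cells.

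The libraries came from female wild-type (WT) C57B6 mice (C57 B6/N in the study's methods), 1 library per stage. Tissue of several embryos from different dams was pooled for each, dissociated with collagenase A and hyaluronidase at other concentrations at P0 than in the embryo, and sorted into EpCAM+ and EpCAM- cells after CD45+, CD31+ and Ter119+ cells had been excluded. Cells with at least 5000 UMIs (counted mRNA molecules) and at most 6% mitochondrial UMIs were kept, which left 235 of 981, 76 of 807, 816 of 2642 and 503 of 1466 barcodes in stage order, 1630 cells in all, with medians of 17908, 25207, 24646.5 and 9226 UMIs. No kept barcode occurred in more than 1 library. Stage, library and dissection session cannot be told apart, and cells of 1 library are not replicates, so that no test was made between stages or classes. Each level is the summed UMIs of a class of cells per 1000000 of its UMIs (CPM), each interval in parentheses is an exact 95% interval, and all intervals cover counting error only. The kit counts the 3′ end of each mRNA, so CPM needs no scaling by gene length.

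Cells were placed in 3 classes. Krt8/Krt18-high cells, which the choice of classes calls mammary, had at least 5 UMIs of Krt8 and Krt18 together and numbered 62, 23, 452 and 235 at the 4 stages. Other epithelial cells had fewer of these and more Epcam and Cdh1 than Col1a1 and Col3a1 UMIs, and numbered 37, 22, 87 and 2, so that P0 had too few for any ratio. Mesenchymal cells had more of the collagen UMIs and numbered 135, 31, 277 and 266. Median depth was 18112, 22103 and 16438 UMIs in the 3 classes of E13.5, 27646, 23653 and 24268 in those of E14.5, 24887, 23564 and 24103 in those of E15.5, and 9966 and 8735.5 in the Krt8/Krt18-high and mesenchymal cells of P0.

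The name mammary was checked against marker genes and held only in part, so the class is called by its rule. The 10 mammary bud genes, among them Tbx3, Lef1 and Sostdc1, summed to 1281, 2402 and 847 CPM in Krt8/Krt18-high cells and 865, 1429 and 691 CPM in other epithelial cells of the 3 embryonic stages, and all 10 had UMIs in each of these groups. Mesenchymal cells had 327, 381 and 408 CPM of the same genes. At P0 the 10 genes of the newborn mammary epithelium, among them Aldh1a3, Elf5 and Prlr, summed to 7967 CPM in Krt8/Krt18-high cells and the 6 myoepithelial genes to 519 CPM, against at most 370.1 and 57.7 CPM in that class before birth. The 8 periderm genes, among them Gabrp, Hopx and Grhl3, summed to 4270.5, 2980, 5095 and 6786 CPM in Krt8/Krt18-high cells of the 4 stages and 1899, 1594 and 5230 CPM in other epithelial cells of the embryo, so that the list as a whole was highest at P0 and did not set the classes apart at E15.5. Ly6d and Plet1 were at 0 in other epithelial cells of E13.5, Hopx and Plet1 in those of E14.5, and Ly6d in Krt8/Krt18-high cells of E14.5. The 6 basal epithelial genes, among them Trp63 and Itgb4, summed to 348, 871 and 555 CPM in Krt8/Krt18-high and 605, 652 and 752 CPM in other epithelial cells of the embryo, and the 6 cycling genes to 710.1, 201 and 371 CPM and to 1015, 684 and 209 CPM. A division fixed first set the periderm and suprabasal genes together against the mammary bud and newborn mammary genes together, by UMIs per cell. The periderm and suprabasal genes had more in 56 of 62, 14 of 23, 444 of 452 and 132 of 235 Krt8/Krt18-high cells in stage order. Such counts compare sums of unlike genes and do not name the cells. At E13.5, 27 of the 62 Krt8/Krt18-high cells had at least 5 UMIs of Gabrp and Hopx together. These cells had 13.9 CPM of Tbx3, 1.99 CPM of Sostdc1 and 7.96 CPM of Lef1, against 174, 289 and 139.8 CPM in the other 35. The rest of the 10 mammary bud genes are not given for these 2 groups, so these values do not stand for the whole list. Several results that rest on the E13.5 class are therefore given with and without these 27 cells, and the others take them in. The 27 cells were set apart after earlier results of these data had been seen. Markers of other cell types were low in the epithelial classes: immune genes summed to 0 to 2.63 CPM and muscle genes to 0 to 1.20 CPM, endothelial genes to 1.62 to 6.92 CPM, Merkel cell genes to 0 to 10.2 CPM and melanocyte genes to 0 to 7.52 CPM in groups of at least 10 cells. Of 3 Schwann cell genes, Erbb3, which epithelia also express, made up most of a sum of 36.3 to 149 CPM, and Sox10 was at most 10.2 CPM, at P0. Mesenchymal genes summed to 199 to 545 CPM in the epithelial classes and to 4410 to 29118 CPM in mesenchymal cells.

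The 5 type II genes lie on chromosome 15 and the 5 type I genes on chromosome 11 of the mouse genome (GRCm38, GENCODE M21), all on the minus strand, with 9 and 8 exons in their main transcripts. Krt5 lies at chr15:101707070-101712898, Krt6a at chr15:101689910-101694307, Krt1 at chr15:101845426-101850794, Krt77 at chr15:101858731-101869705 and Krt4 at chr15:101918535-101924735. Krt10 lies at chr11:99385254-99389364, Krt15 at chr11:100131758-100135928, Krt14 at chr11:100203162-100207548, Krt16 at chr11:100246091-100248902 and Krt17 at chr11:100256217-100261029. Krt10 overlaps Gm11940 and Krt6a overlaps Gm49428, antisense genes on the plus strand. Near copies are a possible source of shared reads. The coding sequence of Krt6a was 97.8% identical to that of its neighbour Krt6b, and those of Krt16 and Krt17 were 87.2% and 85.9% identical to that of Krt14. Over the last 300 bases of the transcripts, where the kit reads, the same identities were 71.0%, 64.7% and 61.3%. By the same alignment, members of different types, such as Krt1 and Krt17 or Krt4 and Krt14, had 61.7% there. The values of Krt16 and Krt17 with Krt14 thus lay near those of distant keratins. Krt6b had at most 0.488 CPM, 1 UMI, in any class, so that few UMIs were assigned to it wherever Krt6a was counted.

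The last 75 coding bases of these near copies are shown because Krt6a, Krt14, Krt16 and Krt17 had different patterns in the cells below. Each is written 5′ to 3′ on the coding strand and ends with its stop codon, and capitals mark bases that differ from, or have no counterpart in, the aligned partner: Krt6a and Krt6b against each other, with 6 such bases each, Krt14 and Krt17 against each other, with 22, and Krt16 against Krt14, with 29. All lie within the last coding exon of their genes. Only these 75 bases were aligned. Capitals at the start of a window, such as the leading TCT of Krt6a, may therefore lack a counterpart only because the partner's window is cut there.
Krt6a, chr15:101690467-101690541: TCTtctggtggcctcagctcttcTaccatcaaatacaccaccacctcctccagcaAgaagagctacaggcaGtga
Krt6b, chr15:101676529-101676603: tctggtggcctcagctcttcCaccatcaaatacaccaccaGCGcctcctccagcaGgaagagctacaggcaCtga
Krt14, chr11:100203312-100203386: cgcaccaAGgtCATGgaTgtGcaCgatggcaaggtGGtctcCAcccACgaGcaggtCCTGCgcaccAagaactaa
Krt17, chr11:100256402-100256476: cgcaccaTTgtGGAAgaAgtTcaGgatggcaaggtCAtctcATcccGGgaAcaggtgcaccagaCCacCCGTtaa
Krt16, chr11:100246234-100246308: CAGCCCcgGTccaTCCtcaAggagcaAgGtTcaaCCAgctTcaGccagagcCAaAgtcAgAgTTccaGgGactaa

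Promoter sequences (RefSeq, GRCm38.p6) were at hand for 4 of the 10 genes. That of Krt14 started 1518 bases inside the GENCODE gene and is not shown. The 250 bases before the start of Krt5, Krt10 and Krt77 are shown because at E15.5 Krt10 and Krt77 were high in the same few cells and Krt5 was lower there. Capitals mark A/T-rich letters of the TATA box kind that a search on both strands found 21 to 30 bases before each start: ATAAAAG in Krt5, 2 overlapping copies of TATATA in Krt77, and TATATA overlapping TATAAA in Krt10. Among 32851 mouse promoters of the table, 4.83% held ATAAAAG, 5.25% TATATA and 12.4% TATAAA on either strand. The AP-1 motif TGANTCA, in 6.75% of all promoters, was in none of these 3 windows.
Krt5, chr15:101712906-101713155, minus strand: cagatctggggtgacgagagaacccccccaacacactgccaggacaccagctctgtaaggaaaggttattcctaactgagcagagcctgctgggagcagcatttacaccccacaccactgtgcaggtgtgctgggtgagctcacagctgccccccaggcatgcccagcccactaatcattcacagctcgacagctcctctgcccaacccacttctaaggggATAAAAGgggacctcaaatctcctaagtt
Krt77, chr15:101869706-101869955, minus strand: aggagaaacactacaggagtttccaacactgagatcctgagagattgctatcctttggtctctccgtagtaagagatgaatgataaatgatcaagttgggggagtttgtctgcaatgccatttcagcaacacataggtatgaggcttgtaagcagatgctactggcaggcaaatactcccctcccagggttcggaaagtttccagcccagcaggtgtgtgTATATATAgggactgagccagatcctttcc
Krt10, chr11:99389365-99389614, minus strand: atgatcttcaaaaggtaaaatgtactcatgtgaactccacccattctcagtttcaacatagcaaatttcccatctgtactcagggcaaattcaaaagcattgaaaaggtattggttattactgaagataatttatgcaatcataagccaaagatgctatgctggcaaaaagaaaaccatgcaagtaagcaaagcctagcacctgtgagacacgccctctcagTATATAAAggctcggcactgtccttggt

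Summed, the 10 keratins reached 4017, 2739.6, 4527 and 1482 CPM in Krt8/Krt18-high cells in stage order. In other epithelial cells the sum was 2960.1, 3528 and 6531 CPM. They made up 96.9%, 98.2% and 97.8% of all keratin UMIs in other epithelial cells, and 75.6%, 83.1% and 70.6% of those in Krt8/Krt18-high cells of the embryo, but 12.6% at P0, where Krt8 alone was at 5168 CPM and Krt18 at 3819 CPM. The classes are defined by Krt8 and Krt18 UMIs, which count among all keratins. The difference in these shares between the classes is therefore largely set by the rule and is no result. The 5 type I members always had more UMIs than the 5 type II members. The ratio was 1.81, 2.72, 4.45 and 9.06 in Krt8/Krt18-high cells by stage, whereas in other epithelial cells it was 2.38, 2.18 and 2.10. Krt14 over Krt5 alone was 0.889, 2.19, 3.50 and 54.3 in Krt8/Krt18-high cells and 1.55, 1.68 and 1.90 in other epithelial cells. In the 35 Krt8/Krt18-high cells of E13.5 with fewer than 5 Gabrp and Hopx UMIs it was 1.93, the ratio of type I to type II members 2.31 and the sum of the 10 keratins 3172 CPM. The mesenchymal cells had 71.8, 41.8, 70.5 and 24.6 CPM of the 10 together, and their values are given as the background for comparison. Krt10 made up 45.1%, 54.3%, 33.3% and 30% of these UMIs in stage order. In Krt8/Krt18-high cells its share was 1.13%, 1.52%, 0.861% and 0.507%, and in other epithelial cells of the embryo 1.37%, 6.96% and 17.4%. Whether the keratin UMIs of mesenchymal cells came from free RNA was not tested.

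**Figure D1:**
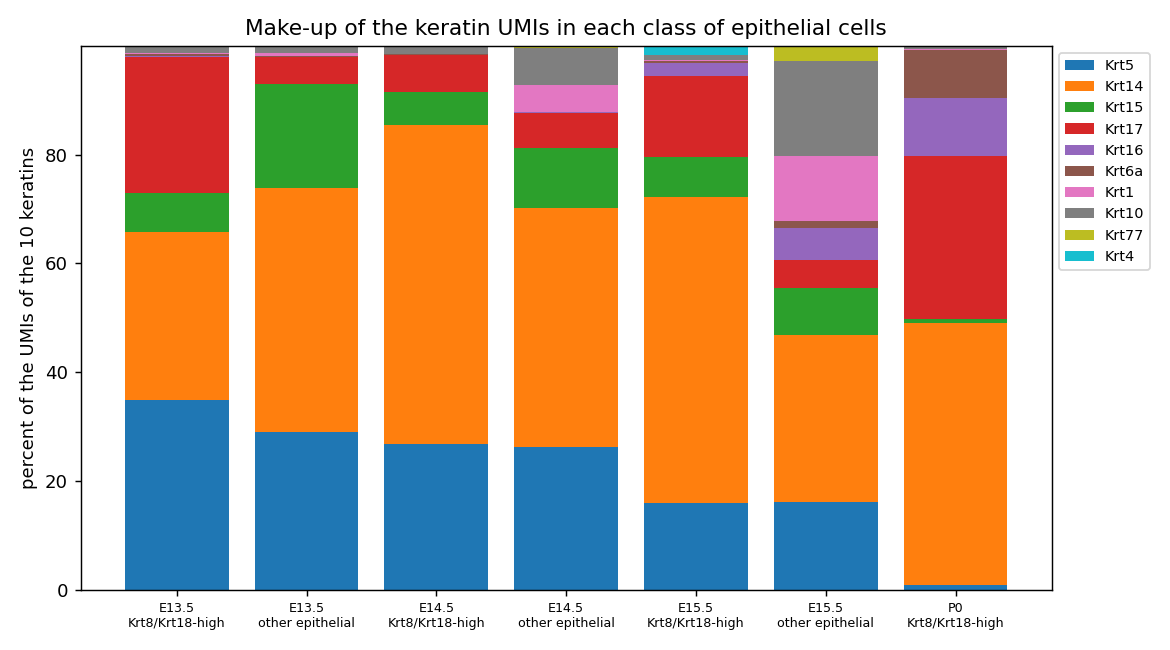
Share of each of the 10 keratins in their summed UMIs (percent, stacked to 100) for Krt8/Krt18-high and other epithelial cells at each stage; the 2 other epithelial cells of P0 are not drawn. Krt5 makes up 34.8% of the bar of Krt8/Krt18-high cells at E13.5 and 0.888% at P0, while Krt14 and Krt17 make up 48.2% and 29.8% at P0, and Krt1, Krt10 and Krt77 make up 11.8%, 17.4% and 2.84% of the bar in other epithelial cells at E15.5.

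**Figure D2:**
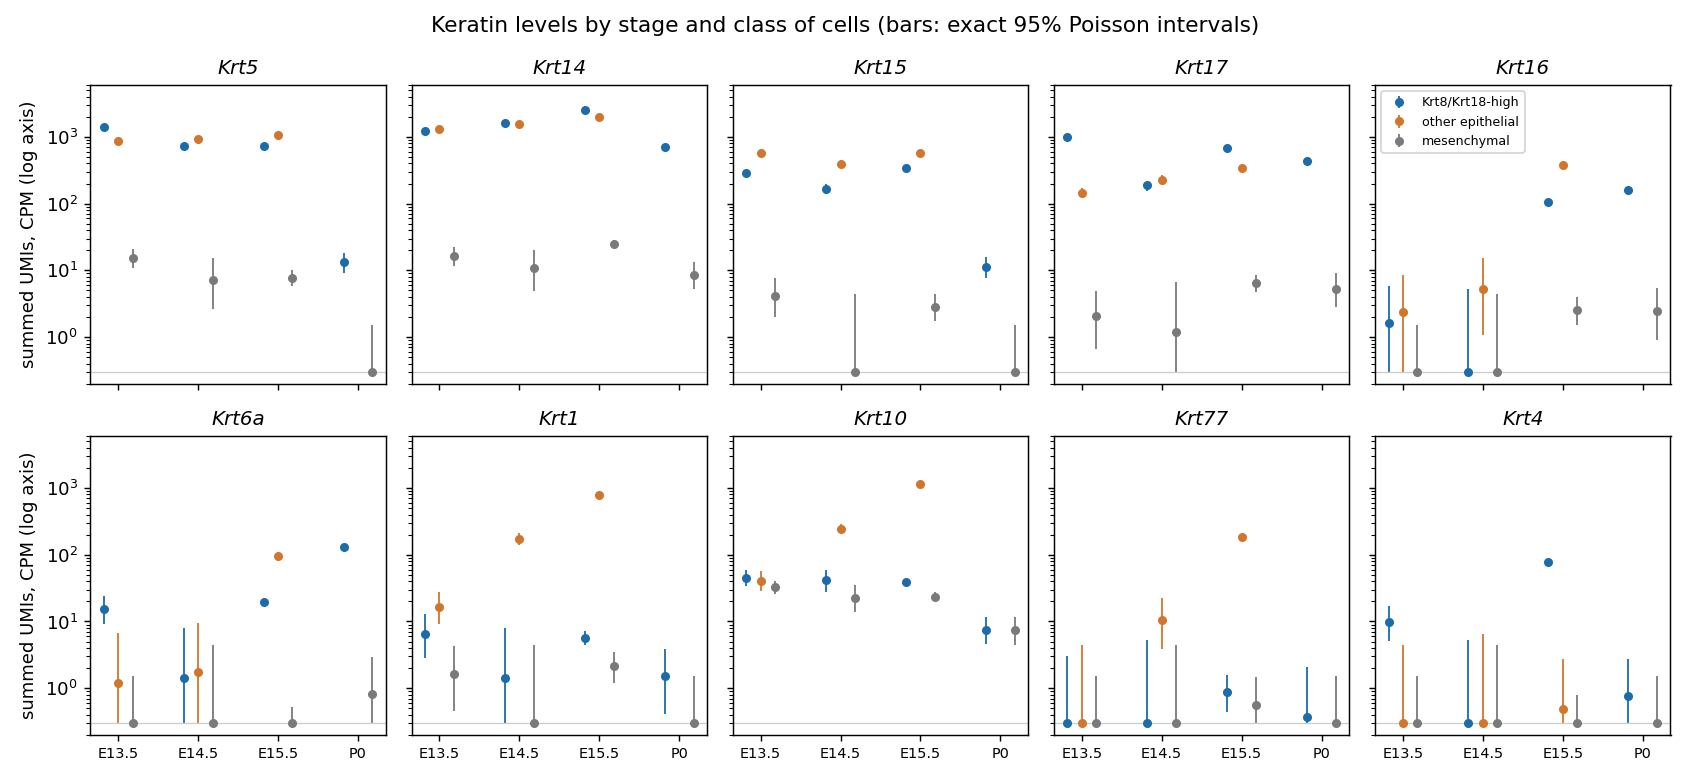
Level of each keratin (CPM, log axis) by stage in Krt8/Krt18-high (blue), other epithelial (orange) and mesenchymal (grey) cells, with 1 library per stage; bars are exact 95% Poisson intervals, and values at 0 are drawn, and intervals end, on the grey line at 0.3 CPM. Krt5, Krt14 and Krt15 of both epithelial classes lie far above the grey points in the embryo, Krt5 and Krt15 are at 13.2 and 11.3 CPM at P0, and Krt1, Krt10, Krt77, Krt6a and Krt16 of other epithelial cells are highest at E15.5.

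Krt5, the basal type II keratin, was at 1400.0 CPM (1335 to 1468) at E13.5, 733 CPM (671 to 799.9) at E14.5, 726 CPM (712 to 742) at E15.5 and 13.2 CPM (9.17 to 18.3) at P0 in Krt8/Krt18-high cells. In other epithelial cells it was at 858 CPM (796 to 923), 924 CPM (847 to 1006) and 1055 CPM (1011 to 1100.0) over the 3 embryonic stages. It was thus highest in the Krt8/Krt18-high cells of E13.5, but the 35 of these cells with fewer than 5 Gabrp and Hopx UMIs had 944 CPM (875 to 1017), below the other epithelial cells of E15.5. The intervals of E14.5 and E15.5 in that class overlapped. Mesenchymal cells had 15.4, 7.16 and 7.81 CPM in the embryo and no UMI at P0, which allows up to 1.23 CPM. Nearly every epithelial cell of the embryo carried it: after every cell was thinned to 5000 UMIs, 91.9%, 82.6% and 85.0% of Krt8/Krt18-high cells of the 3 embryonic stages had a Krt5 UMI (96.8%, 95.7% and 97.8% unthinned), against 5.93%, 3.23% and 2.89% of mesenchymal cells. At P0 the share was 2.98% (4.26% unthinned), 10 of 235 cells.

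Krt14, the type I partner of Krt5, had another course. Its level in Krt8/Krt18-high cells was 1244 CPM (1183 to 1308) at E13.5, 1608 CPM (1515 to 1705) at E14.5, 2541 CPM (2513 to 2569) at E15.5 and 715 CPM (683 to 748) at P0. Other epithelial cells had 1331 CPM (1254 to 1412), 1552 CPM (1452 to 1657) and 2005 CPM (1944 to 2067). Intervals of the 2 classes overlapped at E13.5 and E14.5, and those of the 4 stages did not overlap in Krt8/Krt18-high cells. Without the 27 Gabrp and Hopx cells the E13.5 level was 1821 CPM (1724 to 1921), above other epithelial cells of that stage and above E14.5. Mesenchymal cells had 16.2, 10.7, 24.6 and 8.61 CPM. At P0, 168 of the 235 Krt8/Krt18-high cells had a Krt14 UMI (71.5%, 65.3 to 77.2), and 158 of these 168 had no Krt5 UMI. The thinned share of Krt14 was 63.8% at P0, against 3.40% of mesenchymal cells. The 2 other epithelial cells of P0, with 133 Acta2 UMIs between them, had 98 Krt14, 16 Krt17 and 11 Krt5 UMIs.

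Krt15, the further basal type I keratin, was lower than Krt14 throughout. Krt8/Krt18-high cells had 284 CPM (255 to 315) at E13.5, 167 CPM (138 to 200.1) at E14.5, 337 CPM (327 to 347) at E15.5 and 11.3 CPM (7.61 to 16.1) at P0, and other epithelial cells had 565 CPM (515 to 618), 389 CPM (340.1 to 444) and 566 CPM (534 to 599.9). It was the basal keratin with the largest difference between the classes. Its E14.5 sums leaned on few cells, with 64.7% of the UMIs of Krt8/Krt18-high and 48.9% of those of other epithelial cells in the top 2 cells of each. So did that of E15.5: 2 of the 452 Krt8/Krt18-high cells, described with Krt4 below, held 45.3% of the Krt15 UMIs, and without them the level was 185 CPM (178 to 193). In other epithelial cells at E15.5 the top 2 cells held 12.4%.

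Krt17, a type I keratin of appendages, periderm and wounds, was at 1010.4 CPM (955 to 1068) at E13.5, 187 CPM (156 to 222) at E14.5, 675 CPM (661 to 689.8) at E15.5 and 442 CPM (417 to 468) at P0 in Krt8/Krt18-high cells. In other epithelial cells it was at 146 CPM (121 to 174), 227 CPM (189.5 to 269) and 337 CPM (312 to 363). Krt8/Krt18-high cells were higher at E13.5 and E15.5, and the intervals overlapped at E14.5. The E13.5 order rested on the cells with Gabrp and Hopx: without the 27 such Krt8/Krt18-high cells that class had 97.3 CPM (76.0 to 123), below other epithelial cells, and without the 3 such other epithelial cells, which held 79 of 122 Krt17 UMIs, that class had 55.1 CPM (39.8 to 74.2). The sum in other epithelial cells was uneven: the top 2 cells held 68.0% of the Krt17 UMIs at E13.5 and 77.1% at E14.5, but 19.2% at E15.5.

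Krt16, the type I stress keratin, was all but missing before E15.5. Krt8/Krt18-high cells had 2 UMIs at E13.5, none at E14.5, which allows up to 4.31 CPM, 104 CPM (98.7 to 110.1) at E15.5 and 159 CPM (144 to 175) at P0. Other epithelial cells had 2 UMIs at E13.5, 3 at E14.5, all in 1 cell, and 376 CPM (350.0 to 404) at E15.5. The thinned share of cells with a Krt16 UMI at E15.5 was 20.6% of Krt8/Krt18-high cells and 42.5% of other epithelial cells, against 0.722% of mesenchymal cells (40.5%, 58.6% and 6.14% unthinned).

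Krt6a, a type II stress keratin often made together with Krt16, was at 15.4 CPM (9.28 to 24.1) at E13.5, 1.44 CPM, 1 UMI, at E14.5, 19.6 CPM (17.3 to 22.3) at E15.5 and 132 CPM (118 to 146) at P0 in Krt8/Krt18-high cells. Other epithelial cells had 1 UMI at E13.5, 1 at E14.5 and 94.1 CPM (81.3 to 108) at E15.5. No mesenchymal cell of the embryo had a Krt6a UMI, and 2 of 266 did at P0. At E15.5 the 2 Krt4-high cells held 58.0% of the Krt6a UMIs of Krt8/Krt18-high cells, and the level was 8.30 CPM (6.77 to 10.1) without them. Krt6a was seen in few cells at high counts: at P0 52 of 235 cells had any, and the 24 cells with the most held 87.1% of its UMIs.

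Krt1, the early suprabasal type II keratin, was at 6.49 CPM, 1.44 CPM, 5.61 CPM (4.38 to 7.09) and 1.50 CPM in Krt8/Krt18-high cells over the 4 stages, with 8, 1, 70 and 4 UMIs. Other epithelial cells had 16.7 CPM (9.15 to 28.1) at E13.5, 173 CPM (141 to 210.5) at E14.5 and 773 CPM (736 to 812) at E15.5. The E14.5 value came from few cells: 2 of the 22 held 95 of the 100 Krt1 UMIs. The first of these, with 66578 UMIs in all, was the deepest kept cell of its library. It had 73 Krt1, 121 Krt10, 6 Krt77 and 194 Krtdap UMIs beside 66 of Krt5 and 56 of Krt14. The second had 22 Krt1 but only 2 Krt10 UMIs, with 79 of Krt15, 90 of Krt17 and none of Krt14.

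Krt10, the type I partner of Krt1, was at 45.4 CPM (34.3 to 59.0), 41.7 CPM (27.9 to 59.9), 39.0 CPM (35.6 to 42.6) and 7.52 CPM (4.59 to 11.6) in Krt8/Krt18-high cells. Mesenchymal cells had 32.4, 22.7, 23.4 and 7.38 CPM, so that the Krt10 of Krt8/Krt18-high cells was close to that background, with overlapping intervals at every stage but E15.5. Other epithelial cells were likewise at 40.7 CPM (28.2 to 56.8) at E13.5, and had 246 CPM (207 to 289.6) at E14.5 and 1139 CPM (1093 to 1186) at E15.5. At E14.5, 121 of the 142 UMIs were in 1 of the 22 cells. The others had 41.1 CPM (25.4 to 62.8), level with Krt8/Krt18-high cells. The E15.5 level also rested on a minority of the class: the 9 of 87 cells with the most Krt10 held 72.0% of its UMIs. The median cell of the class then had 0 CPM, against 21.9 CPM in Krt8/Krt18-high cells. After thinning, 15.0% of Krt8/Krt18-high and 10.5% of mesenchymal cells had a Krt10 UMI at E15.5, against 33.3% of other epithelial cells (52.0%, 40.4% and 49.4% unthinned). Whether the counting used strand is not given in the sources used here, so that UMIs of Krt10 and of its antisense partner may not be told apart.

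Krt77, the further suprabasal type II keratin, had no UMI in either epithelial class at E13.5, which allows up to 2.43 CPM in Krt8/Krt18-high and 3.59 CPM in other epithelial cells. At E14.5 its 6 UMIs were all in the Krt1-high cell above. At E15.5 it was at 185 CPM (167 to 205) in other epithelial cells, 380 UMIs in 14 of 87 cells, and at 0.882 CPM (0.440 to 1.58) in Krt8/Krt18-high cells, where P0 had 1 UMI. The top 2 cells held 46.3% of the E15.5 UMIs, so that this level too leaned on few cells.

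Krt4, the keratin of internal stratified epithelia, was confined to a handful of the kept cells. At E13.5, 6 of 62 Krt8/Krt18-high cells held 12 UMIs (9.74 CPM, 5.03 to 17.0), and all 6 were among the 27 cells with Gabrp and Hopx. At E14.5 no cell of any class had a UMI. At E15.5 the class level was 78.4 CPM (73.6 to 83.5), but 976 of the 978 UMIs were in 2 cells. The first of these 2 cells (36403 UMIs in all) had 697 Krt4, 1024 Krt15, 104 Krt6a, 105 Krt5 and 183 Krt19 UMIs and no Krt14 UMI. The second (23567 UMIs) had 279 Krt4, 878 Krt15, 38 Krt6a, 99 Krt5 and 73 Krt19 UMIs and 1 of Krt14. Both also had 28 and 21 Hopx UMIs and none of Tbx3. Without them Krt4 was at 0.161 CPM in the class, and results at E15.5 are given with and without them.

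To compare the classes and stages over all genes by the same rule, a gene with at least 20 UMIs in both groups together was called where the levels, with 10 CPM added to each, were more than 2-fold apart. Between other epithelial and Krt8/Krt18-high cells of E13.5, 7 of the 10 keratins could be compared. None was higher in other epithelial cells, where 1.07% of all genes were, and 2 were lower, Krt6a and Krt17, where 4.83% of all genes were. Krt17 was 6.92-fold lower (5.75 to 8.41) and Krt6a, with 1 UMI against 19, 12.9-fold lower (2.05 to 536). Krt5 was 1.63-fold lower (1.50 to 1.78), Krt15 1.99-fold higher (1.73 to 2.29) and Krt14 1.07-fold higher (0.990 to 1.16). Leaving out the 27 cells with Gabrp and Hopx left 5 keratins to compare, and none was then lower (3% of all genes). Krt6a had fewer than 20 UMIs and could not be called either way. Krt17 was 1.50-fold higher (1.11 to 2.04). It was lower again, with a log2 ratio of -0.72 on the scale with 10 CPM added, when the 3 other epithelial cells with Gabrp and Hopx were left out as well. Krt5 was at a ratio of 0.908 (0.817 to 1.01), and Krt15, 2.23-fold higher (1.88 to 2.65), was called (1.45% of all genes). The 10 stress-response genes, such as Fos, Jun and Atf3, summed to 3840 CPM in Krt8/Krt18-high and 2213 CPM in other epithelial cells, with none at 0, and their part in these differences was not tested.

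At E14.5, 3 of the 6 keratins compared were higher in other epithelial cells (2.74% of all genes), Krt1, Krt10 and Krt15, and none was lower (5.16% of all genes). Krt15 was 2.33-fold higher (1.86 to 2.95). Krt1, with 100 UMIs against 1, and Krt10, 5.89-fold higher (3.93 to 9.12), leaned on the cell with 73 Krt1 UMIs. Without it Krt10 was level between the classes, with a log2 ratio of -0.02 on the scale with 10 CPM added. Krt5 was 1.26-fold higher (1.11 to 1.43), Krt14 at a ratio of 0.965 (0.883 to 1.06) and Krt17 at a ratio of 1.21 (0.944 to 1.56). Stress-response genes summed to 5456 and 4416 CPM in the 2 classes.

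At E15.5 all 10 keratins could be compared, and 5 were higher in other epithelial cells, against 1.28% of all genes. Krt77 was 210.1-fold (116 to 425), Krt1 138-fold (108 to 178), Krt10 29.2-fold (26.5 to 32.3), Krt6a 4.79-fold (3.95 to 5.81) and Krt16 3.61-fold (3.30 to 3.95) higher. Krt4 alone was called lower (1.43% of all genes), and that call ended without the 2 Krt4-high cells (1.44% of all genes). Without these cells 6 keratins were higher (1.32% of all genes), since Krt15 was then 3.06-fold higher (2.85 to 3.29) in place of 1.68-fold (1.58 to 1.80), and Krt6a was 11.3-fold higher (8.88 to 14.6). Krt5 was 1.45-fold higher (1.38 to 1.52), Krt14 1.27-fold lower (1.23 to 1.31) and Krt17 2.00-fold lower (1.85 to 2.17), just short of the call. The median log2 ratio of the 10 keratins was 1.25, that of all genes compared -0.17. Without the 2 Krt4-high cells the median of the 10 keratins was 1.66, that of all genes compared again -0.17. The 9 suprabasal genes other than keratins, such as Krtdap, Sbsn and Lor, summed to 6096 CPM in other epithelial and 2789 CPM in Krt8/Krt18-high cells, all 9 with UMIs in both, and stress-response genes to 5037 and 5443 CPM.

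Between stages, Krt8/Krt18-high cells of E14.5 had 2 keratins lower than those of E13.5 (4.18% of all genes) and none higher (7.25% of all genes), of 6 compared. These were Krt17, 5.40-fold lower (4.51 to 6.53), and Krt6a, 10.7-fold lower (1.70 to 446). Without the 27 cells of E13.5, 5 keratins could be compared, and none passed in either direction (2.02% of all genes lower and 6.29% higher). Krt17 was then 1.92-fold higher (1.43 to 2.60) at E14.5, and Krt6a had fewer than 20 UMIs and could not be called. Krt5 was 1.91-fold lower (1.73 to 2.11) with these cells and 1.29-fold lower (1.15 to 1.45) without them, and Krt14 was 1.29-fold higher (1.20 to 1.40) with them and 1.13-fold lower (1.05 to 1.23) without them. Periderm genes, which include the Gabrp and Hopx that set these cells apart, summed to 4270.5 CPM at E13.5 and 2980 CPM at E14.5. These are sums over the whole class, with Ly6d at 0 at E14.5, and no sum without the 27 cells is given.

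From E14.5 to E15.5, 4 of 9 keratins were higher in Krt8/Krt18-high cells (2.14% of all genes) and none was lower (4.1% of all genes). Krt16 was at least 24.2-fold higher, against a floor of 3 counts over the E14.5 cells, Krt17 3.61-fold higher (3.04 to 4.33), and Krt6a and Krt4 were called with the 2 Krt4-high cells but not without them, which left 2 calls higher (2.15% of all genes) and none lower (4.14% of all genes). Krt14 was 1.58-fold higher (1.49 to 1.68) and Krt5 at a ratio of 0.990 (0.906 to 1.08). In other epithelial cells, 5 of 9 keratins were higher at E15.5 (6.08% of all genes) and none was lower (10.5% of all genes): Krt16 72.4-fold (24.7 to 352), Krt6a, with 193 UMIs against 1, 54.4-fold (9.65 to 2159.8), Krt77 17.9-fold (8.13 to 49.0), Krt10 4.64-fold (3.91 to 5.53) and Krt1 4.47-fold (3.65 to 5.52). Krt1 and Krt10 were also the 2 of 6 keratins called higher from E13.5 to E14.5 in these cells (5.03% of all genes), on the strength of the cells named above, and none was lower (2.57% of all genes).

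From E15.5 to P0, Krt6a was the 1 keratin of 9 higher in Krt8/Krt18-high cells (5.97% of all genes), by 6.70-fold (5.67 to 7.92), or 15.9-fold (12.7 to 19.9) without the 2 Krt4-high cells (6.05% of all genes). Lower were 5 (5.73% of all genes), or 4 without those cells (5.76% of all genes), when Krt4 was no longer called. Krt5 was 55.2-fold (39.7 to 79.3), Krt15 29.8-fold (20.9 to 44.3) or, without the 2 cells, 16.4-fold (11.5 to 24.4), Krt10 5.18-fold (3.32 to 8.56) and Krt14 3.55-fold (3.39 to 3.73) lower. Krt10 of mesenchymal cells, the background, was also lower, at 23.4 CPM at E15.5 and 7.38 CPM at P0, against 39.0 and 7.52 CPM in the class. The fold for Krt14 was much smaller than that for its partner Krt5. Krt16 was 1.53-fold higher (1.36 to 1.70) and Krt17 1.53-fold lower (1.44 to 1.62). The median log2 ratio of the 9 keratins compared was -1.48, that of all genes compared -0.06. Without the 2 Krt4-high cells the median of the 8 keratins compared was -1.04, that of all genes compared again -0.06. Stress-response genes summed to 5443 CPM at E15.5 and 2500 CPM at P0, all 10 with UMIs at both stages, and the P0 tissue was dissociated under other conditions; their part was not tested.

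The classes were mixed, and the keratins divided them further. The groups that follow were formed with genes that are no keratins, after earlier results of these data had been seen, and describe the cells of single libraries. In the E13.5 library the 27 Krt8/Krt18-high cells with Gabrp and Hopx had 2337 CPM of Krt17 (2205 to 2475) and the other 35 had 97.3 CPM (76.0 to 123). Krt5 was at 2062 and 944 CPM, Krt14 at 406 and 1821 CPM, Krt15 at 328 and 253 CPM and Krt10 at 53.8 and 39.7 CPM. Of 5 keratins compared, 2 were called higher (8.11% of all genes), Krt17 by 24.0-fold (18.9 to 31.0) and Krt5 by 2.18-fold (1.98 to 2.41), and 1 lower (8.36% of all genes), Krt14 by 4.48-fold (3.87 to 5.22). Krt4 had 12 UMIs against 0, fewer than the 20 needed for a call, and 8 of the 12 were in 2 cells. Every one of the 27 cells had both Krt5 and Krt17 UMIs, and 19 had a Krt14 UMI, against 33 of the other 35. The simple keratins Krt7 and Krt19 went the same way as Krt17, at 225 and 273 CPM in the 27 cells and 5.48 and 9.59 CPM in the others, and Trp63, a master regulator of stratified epithelia, went with Krt14, at 15.9 and 174 CPM. The rest of the basal epithelial genes are not given for these 2 groups, so Trp63 does not stand for that list. Of the 62 cells, 33 had no Gabrp or Hopx UMI and 8 had 1 to 10, so few lay near the limit.

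**Figure D3:**
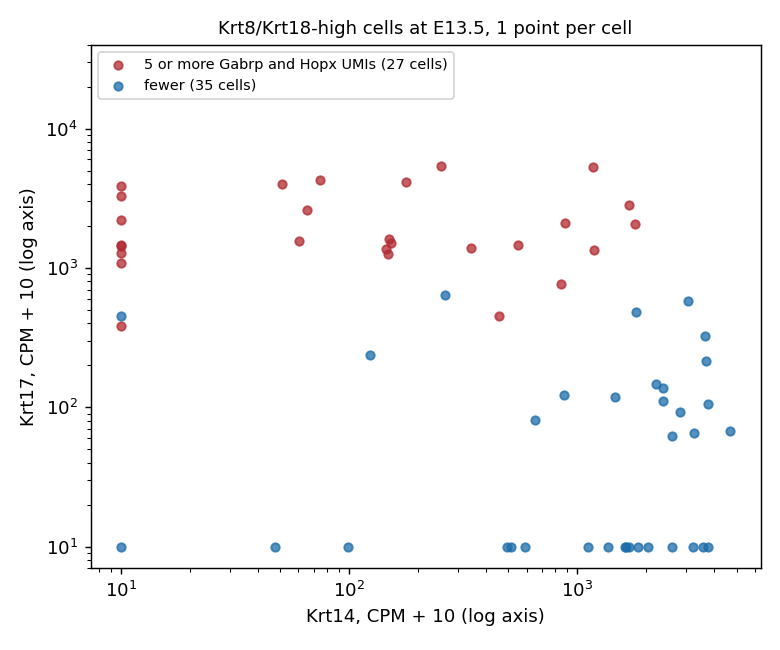
Krt17 against Krt14 in the 62 Krt8/Krt18-high cells of E13.5 (CPM of single cells plus 10, both axes log), with cells of at least 5 Gabrp and Hopx UMIs in red and the rest in blue. The 27 red cells lie in the upper part, between 371 and 5353 CPM of Krt17, and range from 0 to 1775 CPM of Krt14 (median 138), whereas the 35 blue cells reach 4675 CPM of Krt14 (median 1796) and at most 631 CPM of Krt17 (median 51.9).

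Among the 452 Krt8/Krt18-high cells of E15.5, 150 had more Anxa1 and Ly6d than Cxcl14, Pthlh and Lmo1 UMIs, 292 had fewer and 10 were equal. Both Krt4-high cells were in the first group and are left out of its values here. Krt6a was at 19.4 CPM in the first group and 2.18 CPM in the second, 8.93-fold higher (5.26 to 16.0), and Krt17 at 1056 and 469 CPM, 2.25-fold higher (2.15 to 2.35). These were 2 of 8 keratins compared, against 0.731% of all genes, and none was lower (0.387% of all genes). With the Krt4-high cells, Krt4 and Krt15 were called too, 4 of 9 (0.843% of all genes), and again none was lower (0.404% of all genes). Krt5 was 1.49-fold higher (1.43 to 1.56) and Krt10 2.08-fold higher (1.73 to 2.51) in the first group, whereas Krt14 was at a ratio of 1.00 (0.980 to 1.03) and Krt16 at a ratio of 0.950 (0.843 to 1.07). Krt15 was 1.26-fold lower (1.16 to 1.38). The stress keratins therefore did not go together here, since Krt6a and Krt17 differed between the groups while the interval of Krt16 held a ratio of 1.

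Among the 87 other epithelial cells of E15.5, 17 had at least 10 UMIs of Sbsn and Calm4, genes of epidermal differentiation, and 70 had fewer, with 6 cells between 5 and 15. Krt1 was at 2978 CPM (2829.8 to 3131) in the 17 cells and 43.5 CPM (33.7 to 55.2) in the 70. Krt10 was at 4257 CPM (4079 to 4439.6) and 107 CPM (91.4 to 125), and Krt77 at 739.5 CPM (667 to 818) and 1.95 CPM (0.402 to 5.69). The 17 cells held 1518 of 1585 Krt1, 2170 of 2335 Krt10 and 377 of 380 Krt77 UMIs, so that few UMIs of these 3 keratins lay outside the 17 cells. Krt6a, at 251 and 42.2 CPM, and Krt16, at 694 and 271 CPM, were 5.95-fold (4.38 to 8.15) and 2.56-fold (2.22 to 2.96) higher there. With Krt1, 68.5-fold (53.6 to 88.8), Krt10, 39.7-fold (33.9 to 46.8), and Krt77, 379.7-fold (129 to 1849), that made 5 of 9 keratins higher (5.52% of all genes). Krt15, at 74.5 and 729 CPM, was 9.78-fold lower (7.08 to 13.9), and Krt14, at 573 and 2479 CPM, 4.33-fold lower (3.84 to 4.89). These were 2 of 9 keratins, a share near that of all genes called lower (19%). The median log2 ratio of all genes compared was -0.36, so that genes in general were lower in the 17 cells. Krt5, at 663 and 1184 CPM, was 1.79-fold lower (1.59 to 2.01), and Krt17 1.91-fold lower (1.55 to 2.38), short of the call.

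Counted by cell, 20 of these 87 cells had at least 10 Krt10 UMIs, and all 17 cells with at least 10 Krt1 UMIs were among them. Of the 20, 8 also had at least 10 Krt5 UMIs, 7 at least 10 Krt14 UMIs and 11 neither, so that basal and suprabasal keratins were seen both together and apart. Of the 14 cells with a Krt77 UMI, 13 were among the 20. The correlations between single cells were taken on the log scale, with no test because the cells share a library. Over the 87 cells Pearson's r was 0.875 for Krt1 and Krt10, 0.728 for Krt5 and Krt14 and 0.682 for Krt5 and Krt15. It was -0.658 for Krt10 and Krt14 and -0.751 for Krt1 and Krt14. By rank all were weaker: Spearman's rho was 0.698, 0.601, 0.599, -0.365 and -0.361 for the same pairs in this order.

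**Figure D4:**
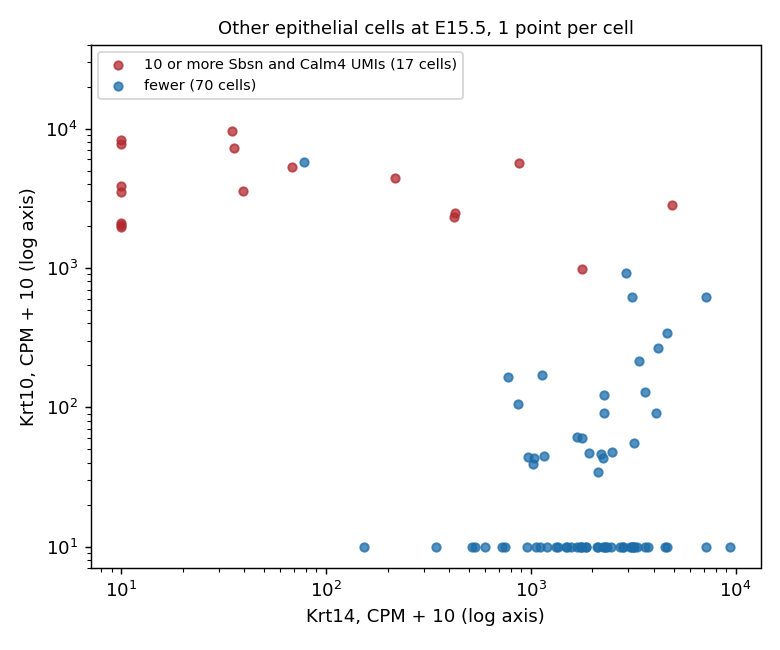
Krt10 against Krt14 in the 87 other epithelial cells of E15.5 (CPM of single cells plus 10, both axes log), with cells of at least 10 Sbsn and Calm4 UMIs in red and the rest in blue. The 17 red cells are all high in Krt10 and spread from no Krt14 to levels like those of blue cells, and most of the 70 blue cells have Krt14 and little or no Krt10.

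At P0, 16 of the 235 Krt8/Krt18-high cells had at least 10 UMIs of Acta2 and Cnn1, genes of smooth muscle and myoepithelium. Krt5 was at 157 CPM (104 to 229) in these and 3.22 CPM (1.39 to 6.34) in the other 219 cells, 49.0-fold higher (21.6 to 125), and 27 of its 35 UMIs were in them. Krt14 was at 1481 CPM (1304 to 1675) and 662 CPM (630.3 to 695), 2.24-fold higher (1.95 to 2.55). These were 2 of 7 keratins (5.11% of all genes). The basal pair was therefore split: Krt14 was seen in 154 of the 219 cells low in Acta2 and Cnn1, and Krt5 in 3. Krt17 was at 665 and 427 CPM, a ratio of 1.56 (1.27 to 1.89). The 3 keratins called lower (16.8% of all genes) were Krt6a, with no UMI in the 16 cells against 141 CPM, at least 8.04-fold lower against their floor of 3 counts, Krt16, at 11.7 and 169 CPM, and Krt15, with no UMI against 12.1 CPM, for which the depth of 16 cells gives no fold.

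The 219 cells were divided once more, into 144 with more Aldh1a3 than Prlr, Cited1 and Esr1 UMIs, 42 with more of the latter, the genes of hormone sensing, and 33 with equal numbers. Krt6a was at 350.1 CPM (306 to 399) in the 42 cells, 55.7 CPM (44.5 to 68.9) in the 144 and 127 CPM (91.2 to 172) in the 33. Krt14 ran the other way, at 141 CPM (113 to 173), 906 CPM (859 to 955) and 542 CPM (465 to 629). Krt17 was at 164, 496 and 623 CPM, Krt16 at 227, 155 and 121 CPM, and Krt15 at 35.9, 1.97 and 12.4 CPM. Between the 42 and the 144 cells, Krt6a was 6.28-fold higher (4.87 to 8.16) and Krt15, with 23 UMIs against 3, 18.3-fold higher (5.52 to 95.1), 2 of 5 keratins (3.9% of all genes), and Krt14 was 6.44-fold (5.20 to 8.06) and Krt17 3.02-fold (2.46 to 3.74) lower (6.36% of all genes). Krt16 was 1.46-fold higher (1.18 to 1.80). The cycling genes Top2a and Mki67 moved with Krt6a, at 329.8 and 208 CPM in the 42 cells and 54.4 and 24.9 CPM in the 144, and their part was not tested. The rest of the cycling genes are not given for these groups. Of 98 cells at P0 with Krt6a or Krt16, 22 had both, 30 only Krt6a and 46 only Krt16. Krt16 was thus found in 42.3% of the cells with Krt6a, against 28.9% of all Krt8/Krt18-high cells. Of all 235 cells, 18 had no UMI of any of the 10 keratins.

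**Figure D5:**
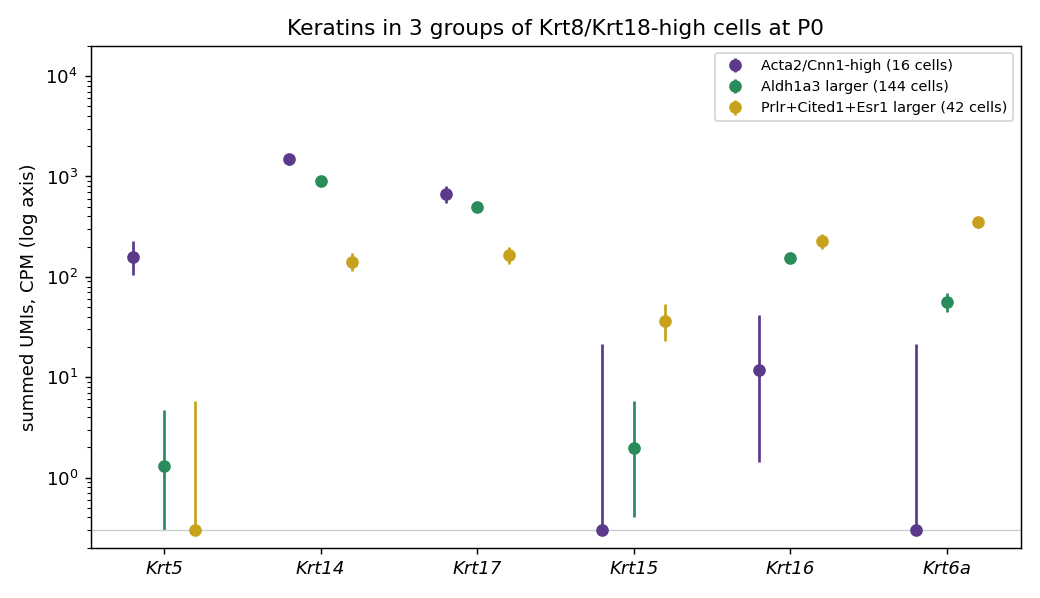
Levels (CPM, log axis) of 6 keratins in 3 groups of P0 Krt8/Krt18-high cells: Acta2 and Cnn1 high (purple, 16 cells), Aldh1a3 larger (green, 144 cells) and Prlr, Cited1 and Esr1 larger (gold, 42 cells). Bars are exact 95% Poisson intervals, and values at 0 are drawn, and intervals end, on the grey line at 0.3 CPM. Krt5 is at 157 CPM in the purple group, Krt14 and Krt17 step down from purple through green to gold, and Krt6a steps up from green to gold with none in purple.

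Cell by cell, Krt5 and Krt14 were found together in 82.3%, 95.7%, 97.1% and 4.26% of Krt8/Krt18-high cells in stage order, or 69.4%, 82.6%, 83.4% and 2.55% after thinning. In other epithelial cells the thinned shares were 83.8%, 86.4% and 80.5%. At E13.5 Krt17 went with Krt5 and against Krt14 in Krt8/Krt18-high cells, with r = 0.542 and r = -0.442 over 62 cells. At P0 Krt17 went with Krt14, with r = 0.362 over 235 cells. These correlations share 1 library each and are descriptions only. The E13.5 shares and correlations of Krt8/Krt18-high cells take in the 27 cells with Gabrp and Hopx and are not given without them. The median cell of these 27 had 138 CPM of Krt14 and 1561 CPM of Krt17, against 1796 and 51.9 CPM in the other 35. How far this mix set the E13.5 values was not tested.

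Of the 43 other keratin genes, 6 reached 10 CPM in a class of at least 10 cells: the simple keratins Krt7, Krt8, Krt18 and Krt19, and Krt23 and Krt80. Krt80 was at 21.1, 17.3, 29.0 and 116 CPM in Krt8/Krt18-high cells, and Krt23 at 45.4 CPM in other epithelial cells of E15.5 and 27.4 CPM in Krt8/Krt18-high cells of P0. A further 27 had UMIs but stayed under 10 CPM, and 10 had none. Krt19, at 117, 21.6, 50.7 and 646 CPM in Krt8/Krt18-high cells, was highest at P0. Its E13.5 level was 9.59 CPM without the 27 cells with Gabrp and Hopx, so that E14.5 was the lowest stage only with them, as for Krt17.

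The patterns of the 10 keratins over the 11 stage and class groups of at least 10 cells were compared, by Pearson's r of log2(CPM + 10), with those of 5508 genes that reached 50 CPM. Krt14 was most like Dsp, the desmosomal plaque gene desmoplakin (r = 0.992), Sfn and Ripk4, and Krt5 most like Grhl3, a transcription factor of epidermal barrier formation (r = 0.977), Fras1 and Hras. Krt15 was most like Fam241a (r = 0.966), Pltp and Hras, and Krt17 most like Cldn4, a tight junction gene (r = 0.983), and F11r. Krt1 was most like Csta1 (r = 0.967), 2610528A11Rik and Them5, Krt10 like Csta1 (r = 0.946), Fabp5 and Them5, and Krt77 like Them5 (r = 0.998), Abca12, a lipid transporter of the epidermal barrier, and Calm4. Krt16 was most like Serpinb5 (r = 0.983), Sprr1a and Ly6d, and Krt6a like Mpzl3 (r = 0.969), Nipal1 and Muc15. Krt4, whose pattern is that of 2 cells, was most like Cnot4 (r = 0.819), 3830417A13Rik and Vapa. Among the members, Krt5 was most like Krt15 (r = 0.980), Krt1 like Krt10 (r = 0.961), Krt14 like Krt17 (r = 0.940) and Krt6a like Krt16 (r = 0.913). All groups of a stage share a library, and epithelial and mesenchymal groups differ in most epithelial genes, so that high values are common.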

How the data were processed

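Single-cell RNA sequencing (10x Chromium 3′ v3.1) of sorted mammary gland cells was analysed for 4 stages, with 1 library each. The authors deposited UMI counts per gene and barcode, which had been made with Cell Ranger and a pre-built mm10 reference. Per the file headers the version was 3.1.0 for the E15.5 library and 6.0.0 for the other 3, whereas the submitters' processing notes give 6.0.0 throughout. Levels and calls were made only for the 30406 genes listed for all 4 libraries, since different versions list different genes. The total UMIs of a cell, used for the filters and for CPM, were taken over all genes of its own library. These were 31053 genes at E15.5 and 32285 at each other stage. Both filters on cells (5000 UMIs or more, mitochondrial share up to 6%) are those stated by the study, and left more cells here in every library than the study gives.

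Counts were summed per library and class and expressed as CPM with exact Poisson intervals. Ratios have exact conditional binomial intervals and shares exact Clopper-Pearson intervals, all at 95% and covering counting error only, because cells of 1 library are not replicates. A gene was called where (CPM + 10) differed at least 2-fold and both groups together held at least 20 UMIs. Bounds against a group without UMIs used 3 counts over the group and the other group at its counted value. They are not exact intervals and leave out the counting error of the other group. For shares of cells with a UMI, every cell was thinned to 5000 UMIs. Doublets had been excluded in the sort, no caller was run, and 77 cells with at least 5 UMIs of both marker sets were left out in an alternative. Depth within classes limits the rare keratins. At E14.5, 3 counts over the 23 Krt8/Krt18-high cells come to 4.31 CPM, so that a lower level there rests on fewer than 3 UMIs.

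The 10 keratins, the marker lists and the groups within classes were chosen with earlier results of these data known. Named genes were the 10 keratins, other keratins at 10 CPM or more in a class of at least 10 cells, the 3 genes most like each keratin (1 of those for Krt17 is not reported here), and genes of the marker lists (mammary bud, newborn mammary, myoepithelial, periderm, suprabasal, basal, mesenchymal, Merkel, melanocyte, endothelial, immune, Schwann and muscle cells, stress response, cycling). Genes used to divide classes and single cells that held most UMIs of a gene were named after their values had been seen. There were 11 alternatives fixed first and 5 added after seeing the data. Positions are from GRCm38 (GENCODE M21), and promoters from RefSeq (GRCm38.p6). The scripts were tested on simulated data and used Python 3.11.15, numpy 2.4.6, scipy 1.17.1, pandas 2.3.3, Biopython 1.88, matplotlib 3.10.9, R 4.3.3 and, for the TMM scaling of 1 alternative, edgeR 4.0.16.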

Additional observations from a re-analysis of the deposited data

Results flagged for a closer look

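The difference between other epithelial and Krt8/Krt18-high cells had opposite directions at different stages for a pair of the keratins. With 10 CPM added to both sides, the log2 ratio of Krt5 was -0.70 at E13.5, 0.33 in the E14.5 library and 0.53 in that of E15.5, and that of Krt6a was -1.18 at E13.5 and 1.81 in the E15.5 library. With 1 library per stage, the difference between the stages was not tested. Without the 27 E13.5 cells with Gabrp and Hopx the E13.5 ratios were -0.14 for Krt5 and, with 1 UMI against 8, -0.90 for Krt6a.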

How the results depend on the processing

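No paired analysis was possible because each stage has 1 library and no result comes from a test. Over the 11 alternatives fixed first, 118 of the counts of called keratins stayed within 1.5 times the count reported and 14 moved, and of the log2 ratios of single keratins 488 stayed, 111 moved and 1 turned. A ratio is said to turn where its interval excluded equal levels and its sign changed. Of the 18 ratios whose interval included equal levels, 9 changed sign under some alternative and are not listed. At E13.5, the count of keratins higher in other epithelial cells was 1 in place of 0 with thinned cells, with means of single-cell CPM, with TMM scaling and without the cells with Gabrp and Hopx, left out of both classes or of Krt8/Krt18-high cells alone. The count lower was 1 in place of 2 with thinned cells and with Krt8 and Krt18 limits of 2 or 10 UMIs, and 0 with classes called after thinning and without the cells with Gabrp and Hopx. At E15.5, the count higher was 3 in place of 5 with classes called after thinning. The count lower was 2 in place of 1 with a mitochondrial limit of 10%, with the limit of 2 UMIs and without possible doublets, and 0 without the 2 Krt4-high cells. From E13.5 to E14.5 in Krt8/Krt18-high cells, the count higher was 1 in place of 0 with classes called after thinning, and the count lower was 1 in place of 2 with the limit of 2 UMIs, 4 with TMM scaling and 0 without the cells with Gabrp and Hopx. From E14.5 to E15.5 the count higher was 2 in place of 4 without the Krt4-high cells. Where no cells were left out, the cause was not tested. Of the 42 ratios whose interval excluded equal levels, 7 turned: those from E13.5 to E14.5 of Krt14 (-0.18) and Krt17 (0.88) without the cells with Gabrp and Hopx, of Krt4 without the Krt4-high cells (0.08 from E15.5 to P0 and 0.05 between the classes of E15.5), of Krt1 between the classes of E13.5 with thinned cells (-0.35), of Krt17 between the same classes without the 27 Krt8/Krt18-high cells with Gabrp and Hopx (0.54, but -0.72 without the 3 such other epithelial cells too), and of Krt10 between those of E14.5 without the cell with 73 Krt1 UMIs (-0.02). Leaving out the P0 cells with Acta2 and Cnn1 changed no count by more than 1.5 times.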
